A study of Homo sapiens with 8 samples.

Results

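The genes described here are 56 zinc finger genes of the 19q13.4 cluster on human chromosome 19, taken by symbol from a table of 56832 gene rows. They were listed because earlier results of these data showed many of them near 0 reads in the libraries of one time, so their levels by time are described without a test. ZNF542P was read from the row with its older symbol, ZNF542. In the GENCODE 29 annotation of GRCh38 the members ran from ZNF615 at position 51991332 to ZNF132, which ends at 58440222. All but ZNF542P, an unprocessed pseudogene, were annotated as protein-coding.

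The libraries came from Nthy-ORI, an epithelial line from normal human thyroid and thus a single cell line in culture. All cells were starved of hormone for 24 h. They then received either 10 nM T3, the active thyroid hormone, or NaOH as its vehicle, for 6 h or for 24 h, which made 4 groups of 2 libraries. The libraries were made from total RNA depleted of ribosomal RNA. The labels do not tell whether the 2 libraries of a group were separate cultures, and p-values therefore cover the spread between libraries, possibly a technical one.

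Reads counted in genes ranged from 2517983 to 8201606 per library, and levels are given as CPM, normalised read counts with TMM scaling of the library sizes. A floor of 3 counts was worth 0.366 to 1.19 CPM in a single library, and 0.222 CPM over the 4 libraries of 6 h. Of the thyroid markers, TG, TSHR and NKX2-1 stayed under 1 CPM in every library, while PAX8, a thyroid transcription factor, stood at 4.01 to 13.45 CPM at 6 h and 107 to 154 CPM at 24 h. The 5 epithelial markers summed to 466 to 525 CPM at 6 h and 213 to 303 CPM at 24 h. Nearly all of this came from KRT8 (179 to 221 and 95.8 to 139 CPM) and KRT18 (273 to 293 and 108 to 160 CPM). EPCAM was also lower at 24 h (6.11 to 11.6 and 1.35 to 3.34 CPM), CDH1 had 14 and 4 reads, and KRT19 had 0 and 34. The 5 fibroblast markers summed to 114 to 214 CPM at 6 h and 627 to 1248 CPM at 24 h. The fibroblast sum was almost all COL1A1 (97.8 to 189 and 606 to 1221 CPM). Of the other 4, DCN and LUM had 33 and 6 reads at 6 h and 0 at 24 h. COL1A2 had 0 reads at 6 h and 40 at 24 h, and PDGFRB stood at 13.2 to 22.5 and 20.05 to 25.2 CPM. Endothelial, immune and C cell markers, each set summed apart, reached no more than 2.45 CPM in any library. The immune sum was 0.900 to 2.45 CPM at 6 h and 0 to 0.298 CPM at 24 h. KLF9, an established T3 target, was higher with T3 at 6 h (13.36 and 14.0 CPM against 0.900 and 0.815). At 24 h it was lower in the libraries labelled T3 (2.78 and 3.34 CPM) than in those labelled vehicle (20.7 and 31.3), against its known direction. The 24 h groups are therefore named by their labels. The ranges of PAX8 and of the epithelial sum did not overlap between the 2 times, and whatever else differed between the 2 sets of libraries cannot be told apart from time.

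Most zinc finger genes of this cluster encode KRAB zinc finger proteins, in which an array of zinc fingers reads DNA and the KRAB domain recruits the corepressor TRIM28. TRIM28 brings in the histone methyltransferase SETDB1 and heterochromatin proteins, and the best known targets are transposable elements. The cluster grew by tandem duplication, so neighbours are often close paralogs. The promoters of several members, among them ZNF471, ZNF582, ZNF671, ZNF677, ZNF154 and ZNF132, are known to be methylated in carcinomas.

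Promoter sequences were taken from RefSeq (GRCh38.p14), which matched 47 of the 56 members with a 300-base window around the annotated start of transcription. Those shown belong to the members on which the results turn, and capitals mark CpG dinucleotides, the sites of DNA methylation. The first pair are neighbours of which ZNF525 had no read at 6 h and ZNF765 was present at both times.

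ZNF525 (chr19:53365455-53365754, plus strand): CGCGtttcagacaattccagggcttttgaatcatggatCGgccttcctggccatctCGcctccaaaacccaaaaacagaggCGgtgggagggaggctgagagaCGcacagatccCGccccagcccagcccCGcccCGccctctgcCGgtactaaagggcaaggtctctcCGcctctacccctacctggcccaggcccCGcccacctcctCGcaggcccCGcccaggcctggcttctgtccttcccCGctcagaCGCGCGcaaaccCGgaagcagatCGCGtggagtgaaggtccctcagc
ZNF765 (chr19:53394899-53395198, plus strand): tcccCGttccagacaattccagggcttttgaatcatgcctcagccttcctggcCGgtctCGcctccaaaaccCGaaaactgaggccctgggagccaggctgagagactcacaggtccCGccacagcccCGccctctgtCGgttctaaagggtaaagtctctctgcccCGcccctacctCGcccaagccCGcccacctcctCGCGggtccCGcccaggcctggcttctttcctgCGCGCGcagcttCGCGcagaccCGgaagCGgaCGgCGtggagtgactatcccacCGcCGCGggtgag

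Both windows hold the same 28-base run, cagacaattccagggcttttgaatcatg, and they contain 21 and 25 CpG dinucleotides. The next pair, from the far end of the cluster, are ZNF418, with no read at 6 h, and ZNF587, among the members with the highest levels. They share a 28-base run, tggggaactacattacccagaaagctct, and hold 13 and 12 CpG dinucleotides.

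ZNF418 (chr19:57935353-57935652, minus strand): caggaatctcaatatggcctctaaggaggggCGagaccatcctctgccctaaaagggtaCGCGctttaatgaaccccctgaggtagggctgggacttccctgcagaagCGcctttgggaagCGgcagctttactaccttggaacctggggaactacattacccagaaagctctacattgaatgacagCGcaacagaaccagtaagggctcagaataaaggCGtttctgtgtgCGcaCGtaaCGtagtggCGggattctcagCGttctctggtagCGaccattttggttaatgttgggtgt
ZNF587 (chr19:57849609-57849908, plus strand): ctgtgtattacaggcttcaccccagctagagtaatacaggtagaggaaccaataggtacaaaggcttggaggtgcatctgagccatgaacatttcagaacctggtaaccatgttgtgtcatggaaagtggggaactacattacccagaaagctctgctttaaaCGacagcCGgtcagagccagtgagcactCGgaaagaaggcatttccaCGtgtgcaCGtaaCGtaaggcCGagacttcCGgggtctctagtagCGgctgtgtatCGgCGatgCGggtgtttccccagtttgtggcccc

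The last 3 windows belong to ZNF582, which had no read at 6 h, to ZNF320, the one member with no read at 24 h, and to ZNF460, the one member past the threshold in a T3 comparison. They hold 30, 20 and 13 CpG dinucleotides.

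ZNF582 (chr19:56393485-56393784, minus strand): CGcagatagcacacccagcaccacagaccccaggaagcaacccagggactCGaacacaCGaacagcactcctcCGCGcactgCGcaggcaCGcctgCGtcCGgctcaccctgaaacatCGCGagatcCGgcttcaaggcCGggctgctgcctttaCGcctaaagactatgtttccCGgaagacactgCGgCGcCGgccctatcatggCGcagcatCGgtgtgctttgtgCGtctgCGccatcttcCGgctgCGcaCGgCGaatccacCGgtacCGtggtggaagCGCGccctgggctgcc
ZNF320 (chr19:52897645-52897944, minus strand): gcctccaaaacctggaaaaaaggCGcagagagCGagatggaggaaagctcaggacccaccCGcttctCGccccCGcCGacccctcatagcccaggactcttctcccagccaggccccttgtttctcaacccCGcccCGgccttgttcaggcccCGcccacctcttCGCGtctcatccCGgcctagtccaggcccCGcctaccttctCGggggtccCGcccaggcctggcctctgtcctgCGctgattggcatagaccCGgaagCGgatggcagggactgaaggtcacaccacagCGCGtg
ZNF460 (chr19:57279732-57280031, plus strand): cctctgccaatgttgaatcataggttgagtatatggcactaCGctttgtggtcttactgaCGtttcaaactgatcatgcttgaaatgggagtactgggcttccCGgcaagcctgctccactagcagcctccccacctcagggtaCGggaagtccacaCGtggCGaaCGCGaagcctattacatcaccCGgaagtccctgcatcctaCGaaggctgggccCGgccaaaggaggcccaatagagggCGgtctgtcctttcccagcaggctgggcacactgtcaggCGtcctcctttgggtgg

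A member was called silent at a time when it stayed under 0.5 CPM in all 4 libraries of that time and reached 1 CPM in all 4 of the other. By this rule 9 members were silent at 6 h: ZNF610, ZNF880, ZNF347, ZNF525, ZNF542P, ZNF582, ZNF471, ZNF418 and ZNF135. Among all genes that reached 1 CPM in every 24 h library, 1.65% were silent at 6 h, against 9 of 49 members (18.4%). The members were chosen with these levels known, so nothing is read from that contrast. Together the 9 genes had 7 reads in the 4 libraries of 6 h and 2069 reads in those of 24 h. A further 12 members were low at 6 h, meaning a mean level no more than 1/8 of that at 24 h. The silent and low members together made 21 of the 51 members with at least 1 CPM on average at 24 h (41.2%), against 7.14% of all such genes. One member, ZNF320, was silent at 24 h, against 2.99% of all genes that reached 1 CPM in every 6 h library. Of the rest, 30 were neither silent nor low, and ZNF415, ZNF665, ZNF677 and ZNF154 averaged under 1 CPM at both times. In bulk RNA, fewer cells that express a gene and less RNA per cell cannot be told apart.

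**Figure D1:**
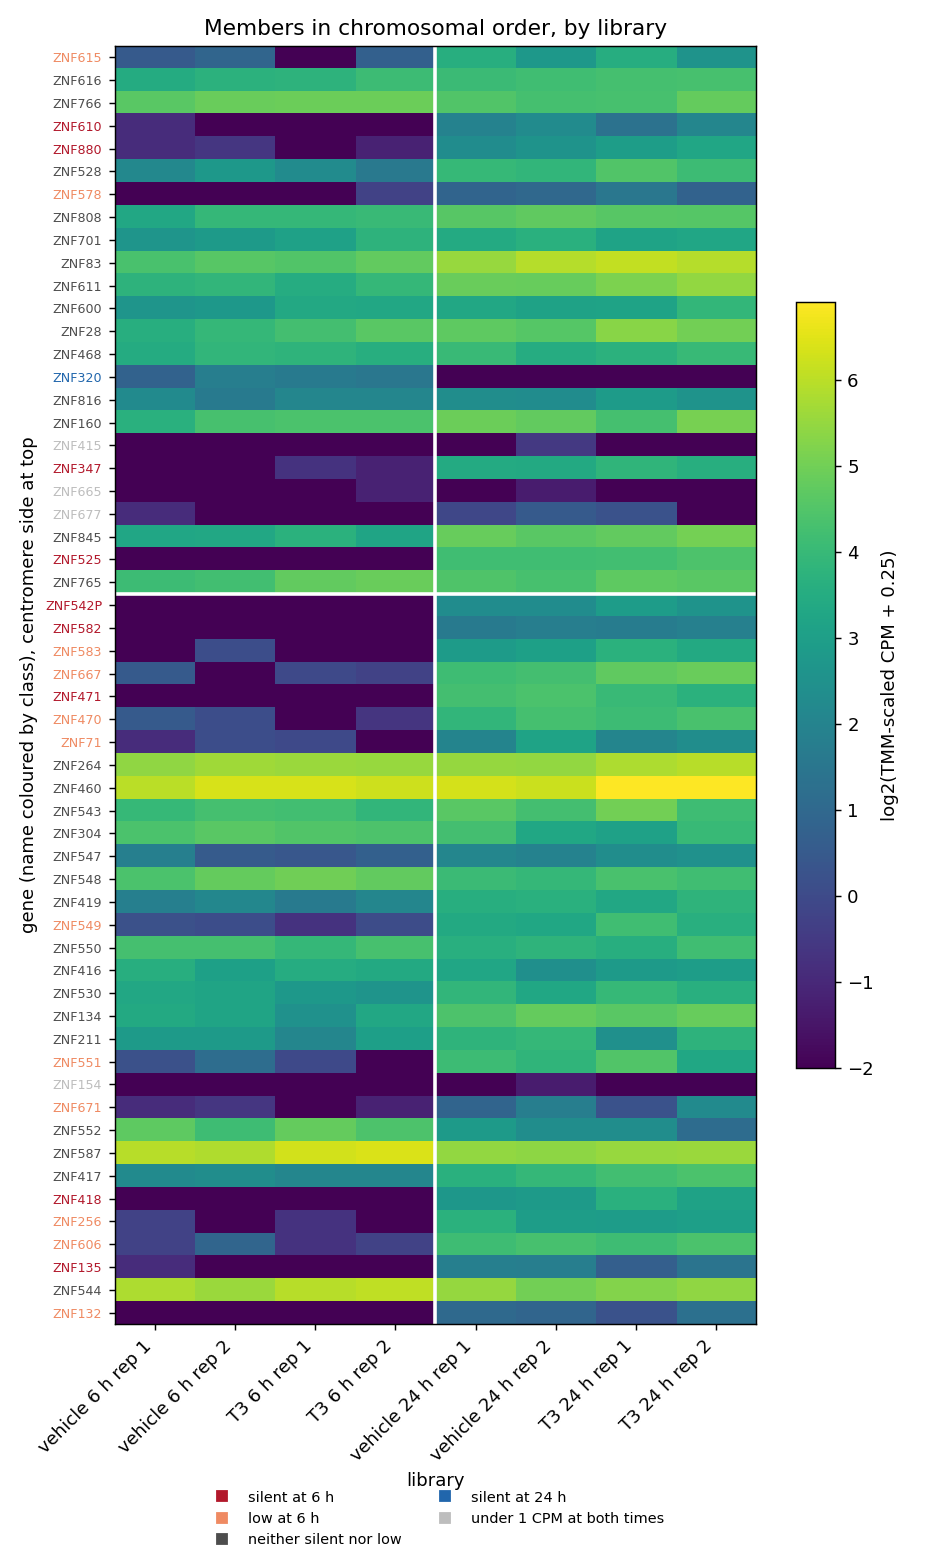
Level of each of the 56 members (rows, in chromosomal order) in each of the 8 libraries (columns), as colour on a log2 scale of TMM-scaled CPM; lines divide the 2 times and the 2 stretches of the cluster. The 9 members silent at 6 h stay under 0.5 CPM in all 4 libraries of 6 h and reach at least 1 CPM in all 4 of 24 h, whatever the treatment.

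Of the 9, 5 had no read in any 6 h library, and they are given here from the highest to the lowest level at 24 h. ZNF525 stood at 17.8 and 18.0 CPM with vehicle and 18.1 and 21.3 CPM in the libraries labelled T3 at 24 h. Against 3 counts over the 4 libraries of 6 h this was at least 84.8-fold higher at 24 h. ZNF471, whose product is a KRAB zinc finger protein with a promoter often methylated in carcinomas, stood at 18.7 and 20.7 CPM with vehicle and 16.4 and 12.8 CPM in the libraries labelled T3, at least 77.3-fold higher. For both genes every 24 h library stood well above the floor of a single library.

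ZNF418 reached 6.30 and 6.995 CPM with vehicle and 12.3 and 8.53 CPM in the libraries labelled T3 at 24 h, at least 38.6-fold higher than at 6 h. ZNF542P reached 4.72 and 4.76 CPM with vehicle and 7.25 and 5.65 CPM in the libraries labelled T3, at least 25.3-fold higher. ZNF582 reached 2.92 and 3.27 CPM with vehicle and 3.09 and 3.46 CPM in the libraries labelled T3, at least 14.4-fold higher. For all 5 genes the rule for silence itself keeps the libraries of the 2 times apart, so nothing is read from that gap. Of the exon bases of ZNF542P, 23.48% lie antisense to other genes, and the strand setting of the counting is not given in the sources used here.

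The other 4 silent members had 1 to 3 reads over the 6 h libraries. ZNF347 stood at 0, 0, 0.361 and 0.201 CPM at 6 h (vehicle, then T3) and at 10.6, 10.4, 14.0 and 11.9 CPM at 24 h. The ratio of pooled levels was 80.02 (95% counting interval 21.97 to 664). ZNF880 stood at 0.2999, 0.408, 0 and 0.201 CPM at 6 h and at 4.72, 5.66, 7.56 and 9.45 CPM at 24 h, a ratio of 32.6 (10.99 to 159). These intervals cover counting error only, and they are wide because so few reads were counted at 6 h.

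ZNF610 had a single read at 6 h, in a vehicle library (0.2999 CPM), and stood at 3.60, 4.61, 2.31 and 4.03 CPM at 24 h, a ratio of 49.9 (8.75 to 1992). ZNF135 likewise had 1 read at 6 h, in the same library, and stood at 3.37, 3.27, 1.39 and 2.42 CPM at 24 h, a ratio of 34.5 (5.98 to 1382). For ZNF135, 32.6% of the exon bases lie antisense to ZSCAN18, so its reads at 24 h may include some from that gene. The 9 members summed to 3, 1, 1 and 2 reads in the 4 libraries of 6 h, which was 0.462% to 1.15% of their mean summed level at 24 h.

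The 12 members that were low at 6 h were ZNF615, ZNF578, ZNF583, ZNF667, ZNF470, ZNF71, ZNF549, ZNF551, ZNF671, ZNF256, ZNF606 and ZNF132. They held 78 reads at 6 h and 3338 at 24 h, with means of 0 to 1.06 CPM at 6 h and 1.64 to 22.7 CPM at 24 h. ZNF667 had the highest level at 24 h, with 17.3 and 18.6 CPM with vehicle and 26.2 and 28.7 CPM in the libraries labelled T3. At 6 h it had 1.199 and 0 CPM with vehicle and 0.722 and 0.602 CPM with T3. ZNF606 had 0.5997, 1.63, 0.361 and 0.602 CPM at 6 h and 17.5, 19.8, 17.6 and 20.9 CPM at 24 h, and the means were 23.7-fold apart. ZNF132 had no read at 6 h and 1.80, 1.64, 0.926 and 2.19 CPM at 24 h, at least 7.40-fold higher. It is counted as low from its mean of 0, although that bound lies under 8-fold. It missed silence because 1 library of 24 h fell under 1 CPM.

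Just inside the limit for silence was ZNF880, with a highest 6 h level of 0.408 CPM. Just outside was ZNF256, at 0.5997 CPM. Just inside the limit for low was ZNF615, 8.34-fold higher at 24 h, and just outside was ZNF417, at 3.83-fold. At 6 h the limit for silence lay under the floor of 3 counts of every single library, so silence there rests on the 4 libraries together.

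**Figure D2:**
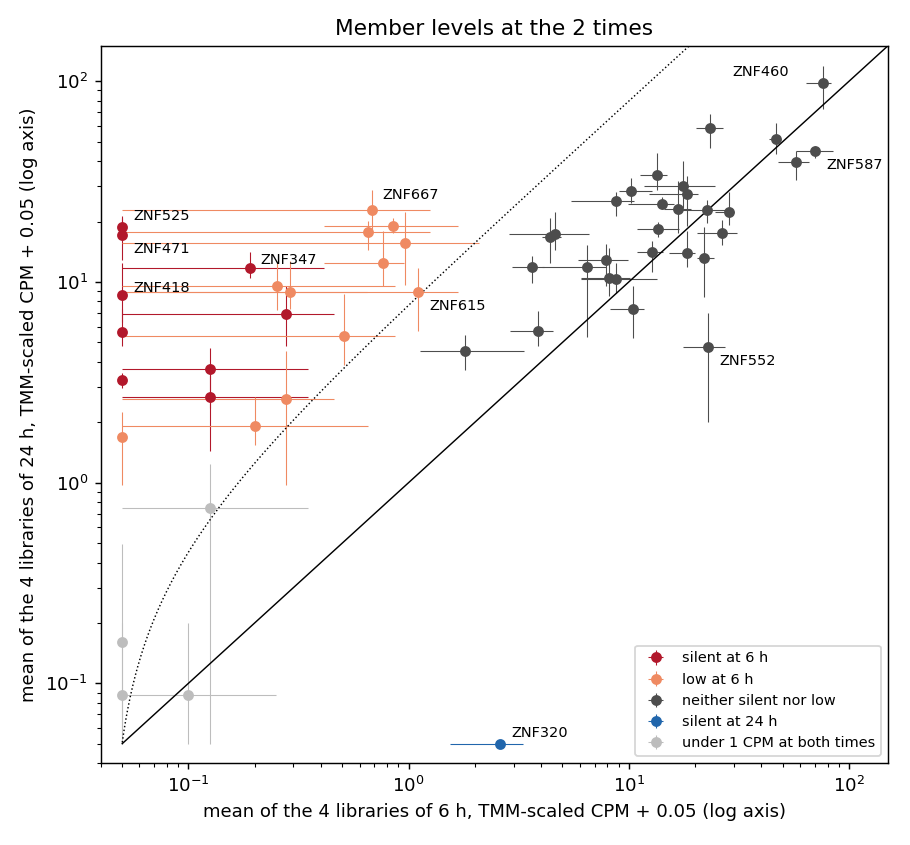
Mean level of each member over the 4 libraries of 24 h (vertical axis) against the mean over the 4 libraries of 6 h (horizontal axis), both as TMM-scaled CPM plus 0.05 on log axes, with colours for the classes, bars from the lowest to the highest library, a solid line at equal levels and a dotted line at 8-fold higher at 24 h. The 21 silent or low members lie to the upper left, ZNF320 lies at the bottom, and ZNF552 is the lowest at 24 h relative to 6 h among the members that were neither silent nor low.

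ZNF320 went the other way, with 1.499 and 3.26 CPM with vehicle and 2.89 and 2.61 CPM with T3 at 6 h and no read in any 24 h library. Its 34 reads at 6 h put it at least 22.5-fold higher there than the 3 counts over the 4 libraries of 24 h. This value is uncertain, because 78.5% of its exon bases overlap genes on the same strand. Of the 50-base windows of its longest transcript, 93.4% also occur in transcripts of other zinc finger genes, nearly all of them in ZNF468. ZNF468 stood at 10.8 to 14.3 CPM at 6 h and 11.2 to 15.97 CPM at 24 h, so its libraries overlapped between the times. The level of ZNF468 is uncertain in the same way. Of its windows 99.15% occur in ZNF320, and 53.3% of its exon bases overlap genes on the same strand.

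The 30 members that were neither silent nor low averaged 1.75 to 75.9 CPM at 6 h and 4.49 to 98.2 CPM at 24 h. The mean was higher at 24 h for 22 of them and lower for 8, with a median ratio of 1.37. Per kilobase of exon the highest were ZNF460 (24.8 CPM per kb), ZNF587 (7.82), ZNF544 (6.80), ZNF543 (5.45), ZNF83 (5.11) and ZNF552 (4.62). ZNF587 and its close paralog ZNF417 encode repressors known to act on HERV-K elements. ZNF587 stood at 60.9 and 57.5 CPM with vehicle and 78.0 and 84.6 CPM with T3 at 6 h, and at 44.3 and 41.4 CPM with vehicle and 45.8 and 47.5 CPM in the libraries labelled T3 at 24 h. All its 24 h libraries lay under all of those at 6 h. ZNF417, in contrast, stood at 3.97 to 4.89 CPM at 6 h and 12.4 to 20.9 CPM at 24 h. Of the 50-base windows of the longest ZNF417 transcript, 37.7% occur in ZNF587. Of the exon bases of ZNF587, 33.3% lie antisense to ZNF814, so the split of reads among these genes is uncertain.

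ZNF544 stood at 55.5, 47.7, 61.0 and 66.0 CPM at 6 h and at 44.8, 32.0, 37.7 and 43.3 CPM at 24 h. ZNF543 stood at 15.3, 19.2, 18.0 and 14.4 CPM at 6 h and at 24.3, 18.9, 31.9 and 17.4 CPM at 24 h, with overlap between the times. ZNF83 stood at 20.1, 24.0, 22.4 and 26.9 CPM at 6 h and at 46.3, 60.1, 68.4 and 60.2 CPM at 24 h. These 3 genes thus took 3 courses, lower at 24 h, overlapping, and higher at 24 h. ZNF552 stood at 25.5, 17.5, 27.4 and 21.3 CPM at 6 h and at 6.97, 4.91, 4.94 and 1.96 CPM at 24 h. Its means were 4.88-fold higher at 6 h, the widest ratio in that direction among the members with reads at both times.

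In the edgeR fit over all genes, which is given here without a test, 17 of 50 fitted members were at least 8-fold higher with vehicle at 24 h than at 6 h (background 4.29% of genes) and 1 was at least 8-fold lower (5.95%). Between the T3 libraries of the 2 times these counts were 19 (7.44%) and 1 (6.95%). The 6 members that did not pass the filter on low counts were ZNF578, ZNF415, ZNF665, ZNF677, ZNF154 and ZNF132. The median fitted log2 fold change of the 50 was 1.18 with vehicle, against 0.03 over all 14611 genes, and 1.54 between the T3 libraries, against 0.02. Genes poor in G and C were higher at 24 h in general, with medians from 0.72 in the fifth of genes lowest in GC to -0.96 in the highest. Exons of the fitted members had a median GC content of 42.4%, against 48.0% over all genes. After removal of the GC and length trends library by library, the medians of the members were 0.75 and 0.90. The members above 0 were then 35 of 50 with vehicle and 32 of 50 between the T3 libraries, in place of 40 and 39 (background 50.8% and 50.5% of genes).

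The summed level of all 56 members was 544 to 656 CPM at 6 h and 836 to 1011 CPM at 24 h. Other zinc finger genes were counted by the same rule. Among those with at least 1 CPM in each 24 h library, 1 of 35 further zinc finger genes of the same interval was silent at 6 h (2.86%). On the rest of chromosome 19 it was 13 of 117 (11.1%), and on other chromosomes 4 of 255 (1.57%). The median log2 fold change with vehicle was -0.54, 0.76 and 0.57 in these 3 sets. No test was made of these differences, since the members were chosen by the same levels.

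By position the members formed 2 stretches, 24 genes from ZNF615 to ZNF765 and 32 genes from ZNF542P to ZNF132, with 2937686 bases between them. The first stretch held 6 of the 21 silent or low members and the second held 15. The longest unbroken run, given the order of the 56 members alone, was ZNF542P, ZNF582, ZNF583, ZNF667, ZNF471, ZNF470 and ZNF71. These 7 genes span 258 kb, from 56368099 to 56626481. ZFP28, a protein-coding zinc finger gene inside this span that is not a member, averaged 0.0750 CPM at 6 h and 13.9 CPM at 24 h. A second run held ZNF418, ZNF256, ZNF606 and ZNF135 over 164 kb, and the remaining run held ZNF610 and ZNF880 over 49.6 kb. Of 55 pairs of neighbouring members, 35 were alike in being silent or low at 6 h or not, and in 10 of these both were. The numbers to be found in a random order were not computed, so no clustering is read from these counts or from the runs.

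Neighbours could also differ widely. The pair furthest apart in the ratio of the times was ZNF525, given above, and ZNF765, which has been reported to bind LINE-1 elements and whose promoter is printed beside that of ZNF525. ZNF765 stood at 16.8 and 18.3 CPM with vehicle and 26.7 and 28.9 CPM with T3 at 6 h. At 24 h it stood at 21.8 and 19.6 CPM with vehicle and 25.5 and 24.2 CPM in the libraries labelled T3. The means at the 2 times were 22.7 and 22.8 CPM, while ZNF525 went from 0 to 18.8 CPM.

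Promoters of the silent or low members were not poor in CpG dinucleotides. The median was 22.5 per window for the 18 such members with a RefSeq window (range 11 to 42) and 25 for the 25 that were neither silent nor low (range 12 to 31). The median over all genes was 14. Windows were searched on both strands for AGGTCA, to which thyroid hormone receptors bind, for the CCAAT box and for TATAAA, the core of the TATA box. The first motif occurred in 6 of 47 member windows (12.8%) and in 13.9% of the windows of all genes. CCAAT occurred in 46.8% of member windows and 35.7% of all, and TATAAA in 0 of 47 and 11.95% of all. A match is a description of the letters and not a site in use.

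**Figure D3:**
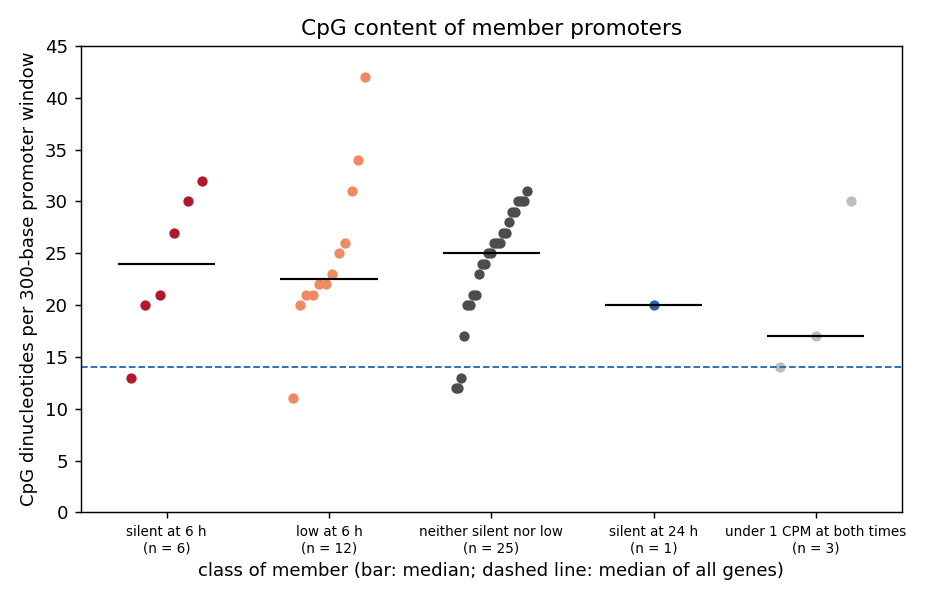
CpG dinucleotides in the 300-base promoter window (vertical axis) of the 47 members with a RefSeq window, 1 point per member, by class; bars are class medians and the dashed line is the median of all genes, 14. Silent and low members span 11 to 42 and overlap the members that were neither, which span 12 to 31.

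T3 against vehicle was tested with the quasi-likelihood test of edgeR over all genes, with Benjamini-Hochberg adjustment. At 6 h, 0 of 50 members passed an adjusted p of 0.05, against 7.64% of all genes. DESeq2 also called 0. At an unadjusted p under 0.05, 4 members were higher (ZNF701, ZNF28, ZNF765 and ZNF587; 11.5% of all genes) and 0 were lower (11.7%). The 3 with the smallest adjusted p were close to the threshold. ZNF587 had a log2 fold change of 0.46 (SE 0.15) and ZNF765 of 0.67 (SE 0.22), each with an edgeR adjusted p of 0.0742. ZNF28 had 0.73 (SE 0.26) with an edgeR adjusted p of 0.0911. In a fit of the 4 libraries of 6 h alone these 3 passed, with edgeR adjusted p of 0.0126, 0.0138 and 0.0167.

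Of the 32 members with at least 1 CPM on average at 6 h, 20 had a fitted log2 fold change above 0 and 12 below (62.5% above, against 49.4% of all such genes). With the GC and length trends removed these counts were 15 and 17. The median of the 32 was 0.11, and -0.03 after that correction. The silent members had at most 3 reads each at 6 h, so a fall with T3 was not detectable there at this depth.

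At 24 h, 1 of 50 members passed, against 13.3% of all genes. This was ZNF460, a KRAB zinc finger gene with the highest level per kilobase of all members. It stood at 80.8 and 72.9 CPM in the libraries labelled vehicle (76.9 ± 5.54, SD, n = 2) and at 119.8 and 119.4 CPM in those labelled T3 (119.6 ± 0.265, SD, n = 2). The libraries labelled T3 lay above all the others, including those of 6 h, at 63.6 and 81.5 CPM with vehicle and 83.0 and 75.4 CPM with T3. The log2 fold change was 0.64 (SE 0.14) with an edgeR adjusted p of 0.00809. It passed under every alternative that was run, with an adjusted p of 0.0410 after the GC and length correction and 0.00545 in DESeq2. At 6 h its log2 fold change was 0.13 (SE 0.15), with an edgeR adjusted p of 0.670.

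At an unadjusted p under 0.05, 5 members were higher in the libraries labelled T3 (ZNF611, ZNF28, ZNF667, ZNF264 and ZNF460; 13.0% of all genes) and 0 were lower (15.8%). Of these, ZNF28 (0.55, SE 0.21) and ZNF264 (0.40, SE 0.15) each had an edgeR adjusted p of 0.0881. Of the 49 members with at least 1 CPM on average at 24 h, 36 had a fitted log2 fold change above 0 and 13 below (73.5% above, against 49.2% of all such genes). With the GC and length trends removed these counts were 25 and 24, and the median went from 0.18 to 0.00. Calls in the other direction appeared with single libraries left out. Without the first library labelled T3 at 24 h, ZNF552 passed at -1.56 (edgeR adjusted p 0.0235), and without the second, ZNF211 passed at -1.47 (edgeR adjusted p 0.0171).

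No member passed the test of the difference between the 2 responses (0 of 50, against 1.84% of all genes). At an unadjusted p under 0.05 in edgeR, 1 member was more positive at 24 h (7.1% of all genes) and 1 more negative (8.6%). These were ZNF460 (difference 0.51, SE 0.21, edgeR adjusted p 0.230) and ZNF701 (-1.14, SE 0.47, edgeR adjusted p 0.235). DESeq2 called 0. With the 24 h groups as labelled, the response of ZNF460 at 24 h was therefore not shown to differ from that at 6 h.

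**Figure D4:**
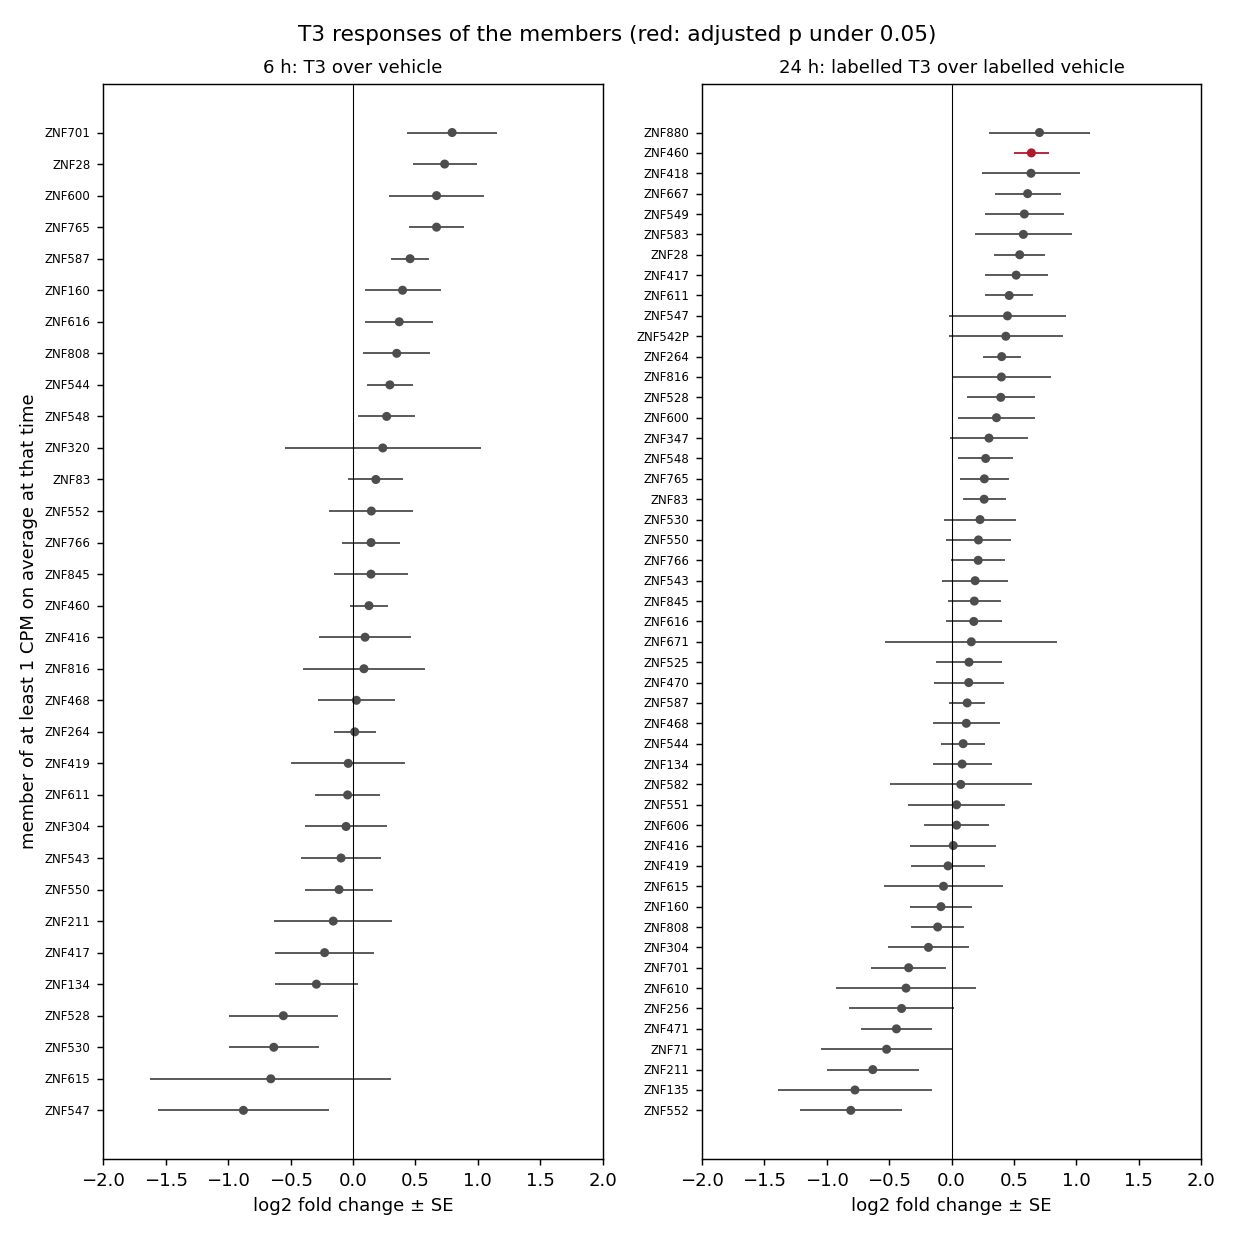
Fitted log2 fold change of T3 against vehicle for members with at least 1 CPM on average at that time, at 6 h (32 members) and 24 h (49 members), with the groups as labelled; points are estimates and bars are 1 SE on each side. Only ZNF460 at 24 h, at 0.64, passes an adjusted p of 0.05.

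The proteins that KRAB zinc finger proteins work with were followed as a list of 35 genes for corepressors, histone and DNA methyltransferases, heterochromatin proteins and TET enzymes, which was drawn up with earlier results of these data known. TRIM28, which the KRAB domain recruits, stood at 777 and 619 CPM with vehicle and 839 and 850 CPM with T3 at 6 h. At 24 h it stood at 130 and 89.0 CPM with vehicle and 80.2 and 89.5 CPM in the libraries labelled T3, with no overlap between the times. SETDB1, the histone methyltransferase of the complex, stood at 107 to 152 CPM at 6 h and 66.0 to 73.8 CPM at 24 h. ZNF274, a zinc finger protein that binds the 3' ends of zinc finger genes and brings SETDB1 there, stood at 38.3 to 49.3 CPM at 6 h and 20.5 to 26.5 CPM at 24 h. TET1, which oxidises methylated cytosine, stood at 0 to 1.63 CPM at 6 h and 16.4 to 27.2 CPM at 24 h. The list as a whole did not follow TRIM28. With vehicle, 22 of the 35 had a fitted log2 fold change of 24 h over 6 h above 0, against 50.8% of all genes. The median of the list was 0.21, against 0.03. Among the 22 were CBX5, a heterochromatin protein that binds methylated histone (378 to 473 and 1368 to 1690 CPM), and ATF7IP, a partner of SETDB1 (48.1 to 57.2 and 144 to 192 CPM). Others of the list were lower at 24 h like TRIM28, among them SUV39H1 (55.6 to 67.8 and 13.0 to 17.1 CPM). EHMT2 was lower as well (162 to 193 and 32.1 to 55.2 CPM). The GC trend between the times was not removed from these values. GC content was 63.7% for TRIM28, 50.9% for SETDB1, 51.4% for ZNF274, 41.0% for TET1, 41.8% for CBX5 and 40.2% for ATF7IP. For SUV39H1 and EHMT2 it was 57.6% and 60.9%. The part of any of these genes in the levels of the members was not tested.

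With T3 at 6 h, 2 of the 35 rose and 0 fell, against 7.64% of all genes called in either direction. These were HDAC2, a histone deacetylase (0.52, SE 0.13, edgeR adjusted p 0.0255), and PPHLN1, a subunit of the HUSH silencing complex (0.71, SE 0.15, edgeR adjusted p 0.00864). With the GC and length trends removed, HDAC2 no longer passed (0.28, edgeR adjusted p 0.355) and TRIM28 did (0.61, edgeR adjusted p 0.0163). In the libraries labelled T3 at 24 h, 2 of the 35 rose and 5 fell, against 13.3% of all genes called, and 0 passed with those trends removed. The 2 were CBX3, a heterochromatin protein (0.43, SE 0.12, edgeR adjusted p 0.0305), and TASOR, another HUSH subunit (0.41, SE 0.13, edgeR adjusted p 0.0406). The 5 were CHD3, DNMT1, EHMT2, GATAD2A and MTA1. Among them CHD3, a remodeler of the NuRD complex, had -0.70 (SE 0.14, edgeR adjusted p 0.00487), and DNMT1, the maintenance DNA methyltransferase, had -0.45 (SE 0.11, edgeR adjusted p 0.0153). TRIM28 had 0.27 (SE 0.15) at 6 h and -0.36 (SE 0.16) at 24 h and did not pass at either time (edgeR adjusted p 0.318 and 0.152). Exons of the 2 that rose have a GC content of at most 39.5%, and those of the 5 that fell of 55.3% to 61.6%. No gene of the list passed the test of the difference between the responses.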

How the data were processed

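RNA was measured in 8 libraries of 4 groups. Each deposited table gives whole counts of reads by gene symbol for 1 library, and 5 summary rows were left out. The submitters' processing notes name CASAVA 1.7, STAR 2.7, HTSeq, DESeq2 and the build hg38. Annotation and strand setting: not given in the sources used here. Reads in genes made up 12.9% to 17.1% of each table at 6 h and 19.5% to 24.4% at 24 h. Reads without a unique position, which can lower close paralogs, made up 61.2% to 67.4% at 6 h and 47.6% to 57.05% at 24 h. Neither share overlapped between the times, so these differences cannot be told apart from time in the levels of the members.

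The counts were fitted with edgeR 4.0.16 in R 4.3.3: TMM factors, filterByExpr, 1 coefficient per group, and the robust quasi-likelihood test with 4 residual degrees of freedom, over 14611 genes, with Benjamini-Hochberg adjustment and a threshold of 0.05. The biological coefficient of variation was 13.1%. The procedure was tested on simulated data. The alternatives were DESeq2 1.42.0, RLE factors, no filter, a replicate block, removal of GC and length trends (lowess, span 0.3), fits of one time alone, other limits for silence, and leaving out each library. Those for the contrasts of the times were added after seeing the data. No 2 libraries were identical.

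Members and lists were chosen with earlier results of these data known. Values in every library are given for members silent at one time, members past the threshold with T3, the 6 highest per kilobase, and the neighbours furthest apart in their ratio of the times. Of other genes, TRIM28, SETDB1, ZNF274, KLF9, HR and called members of the repressor list (up to 4 per comparison) follow the rule, while the other genes were picked after their values were seen.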

Additional observations from a re-analysis of the deposited data

Results flagged for a closer look

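The check of the labels with 2 established T3 targets gave opposite directions at the 2 times, and the difference between the responses, 24 h less 6 h, passed the edgeR test for both. KLF9 had a difference of -7.03 on the log2 scale (adjusted p 4.08e-06). HR, which encodes a corepressor, had -4.96 (adjusted p 0.000128). HR stood at 68.1 and 58.3 CPM with vehicle and 115.5 and 101.5 CPM with T3 at 6 h, and at 4.27 and 3.87 CPM with vehicle and 0.309 and 0.115 CPM in the libraries labelled T3 at 24 h. The direction given for ZNF460 and for the repressor list at 24 h rests on these labels. So do all tests of the difference between the responses, including those that no member passed.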

How the results depend on the processing

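ZNF460 kept its direction and its call at 24 h in all alternatives. The count of members called with T3 at 6 h was 3 in the fit of the 6 h libraries alone, and between 0 and 1 when single libraries were left out, namely ZNF587 without either vehicle library of 24 h and ZNF765 without either T3 library of 24 h. At 24 h it was between 1 and 2 when single libraries were left out. Over all genes, 1117 calls at 6 h became 484 with GC and length trends removed, 2898 with the 6 h libraries alone, and 131 to 1681 with single libraries left out. The 1948 calls at 24 h became 198, 702 with the 24 h libraries alone, and 1128 to 2056. The 269 calls for the difference became 674 without the filter and 49 to 750 with single libraries left out. The causes were not tested.

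The replicate numbers did not pair the libraries, with correlations of -0.0036 at 6 h and -0.0437 at 24 h. With the replicate block, members called were 0 at 6 h, 1 at 24 h (ZNF460, 0.64, edgeR adjusted p 0.0124) and 0 for the difference, and all genes called were 883, 1641 and 246.

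With a limit of 0.25 CPM in place of 0.5, 5 members were silent at 6 h, the 5 with no read. With limits of 1 and 2 CPM 12 were, and ZNF320 was no longer silent at 24 h (0 members). Leaving out single libraries gave 9 to 11. The counts of members at least 8-fold higher at 24 h stayed within 1.5 times in every alternative, and the share of members above 0 was alike under 4 scalings (39 to 41 of 50), but 35 and 32 with GC and length trends removed.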

Other observations

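Other zinc finger genes of the same interval that are not members included 4 with a mean at 6 h no more than about 1/8 of that at 24 h, chosen after their values were seen. ZFP28 had 1 read at 6 h and 12.4 to 15.7 CPM at 24 h. ZIK1 had 0 to 0.900 CPM at 6 h and 9.67 to 17.0 CPM at 24 h, ZNF773 had 0 to 1.00 and 4.03 to 11.2 CPM, and ZSCAN18 had 0.361 to 2.999 and 10.7 to 20.9 CPM.

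Several others in the interval, also chosen afterwards, went the other way. ZNF787 stood at 59.9 to 84.9 CPM at 6 h and 3.86 to 11.2 CPM at 24 h, and ZNF581 at 32.5 to 79.2 and 3.57 to 8.32 CPM. ZNF579 stood at 32.3 to 57.3 and 2.62 to 6.10 CPM, and ZNF628 at 11.6 to 23.7 and 1.57 to 2.01 CPM. Their exons have a GC content of 70.3%, 59.6%, 65.8% and 70.4%, against the median of 42.4% for the fitted members. Genes of lower GC content were lower at 24 h as well, among them ZNF749 (46.1%) and ZNF587B (45.4%). Their fitted log2 fold changes with vehicle were -1.28 and -1.13. Of the 37 fitted genes of this set, 17 had a value above 0. The part of GC content was not tested. In the libraries labelled T3 at 24 h, ZNF787 (-1.38, edgeR adjusted p 0.00360) and ZNF865 (-1.97, edgeR adjusted p 0.00235) were lower. ZNF580 was lower as well (-1.03, edgeR adjusted p 0.0474), against 13.3% of all genes called in either direction. With T3 at 6 h, ZNF772 (-2.45, edgeR adjusted p 0.000278) and ZNF581 (-1.0039, edgeR adjusted p 0.0201) were lower, against 7.64% called. ZNF772 also passed the test of the difference between the responses (2.81, edgeR adjusted p 0.00124). For these genes no values with the GC and length trends removed are given. ZNF331, which lies between the 2 stretches of members, stood at 42.6 to 61.4 CPM at 6 h and 45.4 to 56.9 CPM at 24 h, with overlap between the times.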
